A study of Sus scrofa with 54 samples.

Results

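The 2 genes described here are ENSSSCG00000009361 and ENSSSCG00000009004, out of 25114 pig genes with a row in the count table. The gene name table of the reference pairs them with the symbols POSTN (periostin) and SFRP2 (secreted frizzled-related protein 2). They were chosen by their measured counts in heart micro-biopsies, which were higher at day 7 than at baseline for both, so their levels in those micro-biopsies are given as a description, without a test. The levels in conventional heart biopsies, skeletal muscle and blood were not used to pick them. The relation to FN1 (fibronectin, ENSSSCG00000016174) within groups was not a criterion either. In the micro-biopsies, however, that relation rests on the same values that picked the genes, and only in conventional biopsies is it free of them.

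Periostin is a matricellular protein, that is, a secreted protein that binds collagen and other matrix components and signals to cells through integrins. In the heart it is known as a product of valve and developing fibroblasts and of fibroblasts activated after injury, and adult myocardium at rest makes little of it. SFRP2 is a secreted protein with a frizzled-like domain that binds Wnt ligands, and it has also been described to assist the enzymatic processing of procollagen. Fibronectin is a glycoprotein of the provisional matrix that fibroblasts and other cells lay down in healing tissue.

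Bulk RNA-sequencing had been performed on 54 samples from 5 pigs (Sus scrofa, naïve adult female Yorkshire-Swedish farm swine, none carrying a transgene or given an agent under study). Micro-EMB (endomyocardial biopsy) samples are sub-milligram pieces of the left ventricle cut with a miniaturized catheter device, with 20 taken at baseline (day 0, naïve heart, 5 pigs) and 12 at follow-up (day 7, 4 pigs; pig 4493 had none). Pigs 4491 and 4494 also gave conventional EMB samples taken with a standard forceps bioptome (6 on day 0 and 4 on day 7), and 6 skeletal muscle and 6 blood samples, both at baseline. Each heart sampled at follow-up had been biopsied a week earlier, so time since the first sampling and the first sampling itself cannot be told apart. Biopsies of 1 pig are not separate animals, and p-values below measure the spread between biopsies.

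Libraries held from 64216 to 4649613 reads assigned to genes (median 1800054.5), with 14 of them under 1000000. Levels are CPM (reads of a gene per 1000000 counted reads), with library totals scaled by TMM factors over all samples. In micro-EMB at baseline, 3 samples (replicates 3, 4 and 9) had fewer than 5000 genes at 1 CPM or more. On the study's blood genes, 7 samples clustered with blood. They were micro-EMB baseline 1 and 8, micro-EMB follow-up 9, conventional EMB baseline 5, conventional EMB follow-up 1 and 3, and skeletal muscle 6. The left ventricle label was checked against 6 matched cardiomyocyte genes (MYH6, TNNT2, MYL3, ACTC1, RYR2 and NPPB). Their summed level was under 1000 CPM in 5 of 42 heart biopsies and at least 6705 CPM in the others. The 5 were micro-EMB baseline 1 (194 CPM) and 9 (747 CPM), micro-EMB follow-up 6 (664 CPM), conventional EMB baseline 5 (92.7 CPM) and conventional EMB follow-up 3 (345 CPM). In those libraries the defining markers of heart muscle were near absent, against the label. Some values over the heart biopsies are also given without them, a choice made after seeing the data. Where no limit on the samples is stated, they are included.

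POSTN was detected in heart and skeletal muscle and was close to absent in blood. Its median level was 1568 CPM in micro-EMB at follow-up, 253 CPM in micro-EMB at baseline, 235 CPM in conventional EMB at baseline, 191 CPM in conventional EMB at follow-up, 122 CPM in skeletal muscle and 0 CPM in blood. The 4 groups in the middle of this order overlapped sample by sample. SFRP2 had a different order, with a median of 26.5 CPM in micro-EMB at follow-up (9.14 CPM without follow-up 6, one of the biopsies of near-absent cardiomyocyte genes), 3.39 CPM in skeletal muscle and 0 CPM in the other 4 groups.

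**Figure D1:**
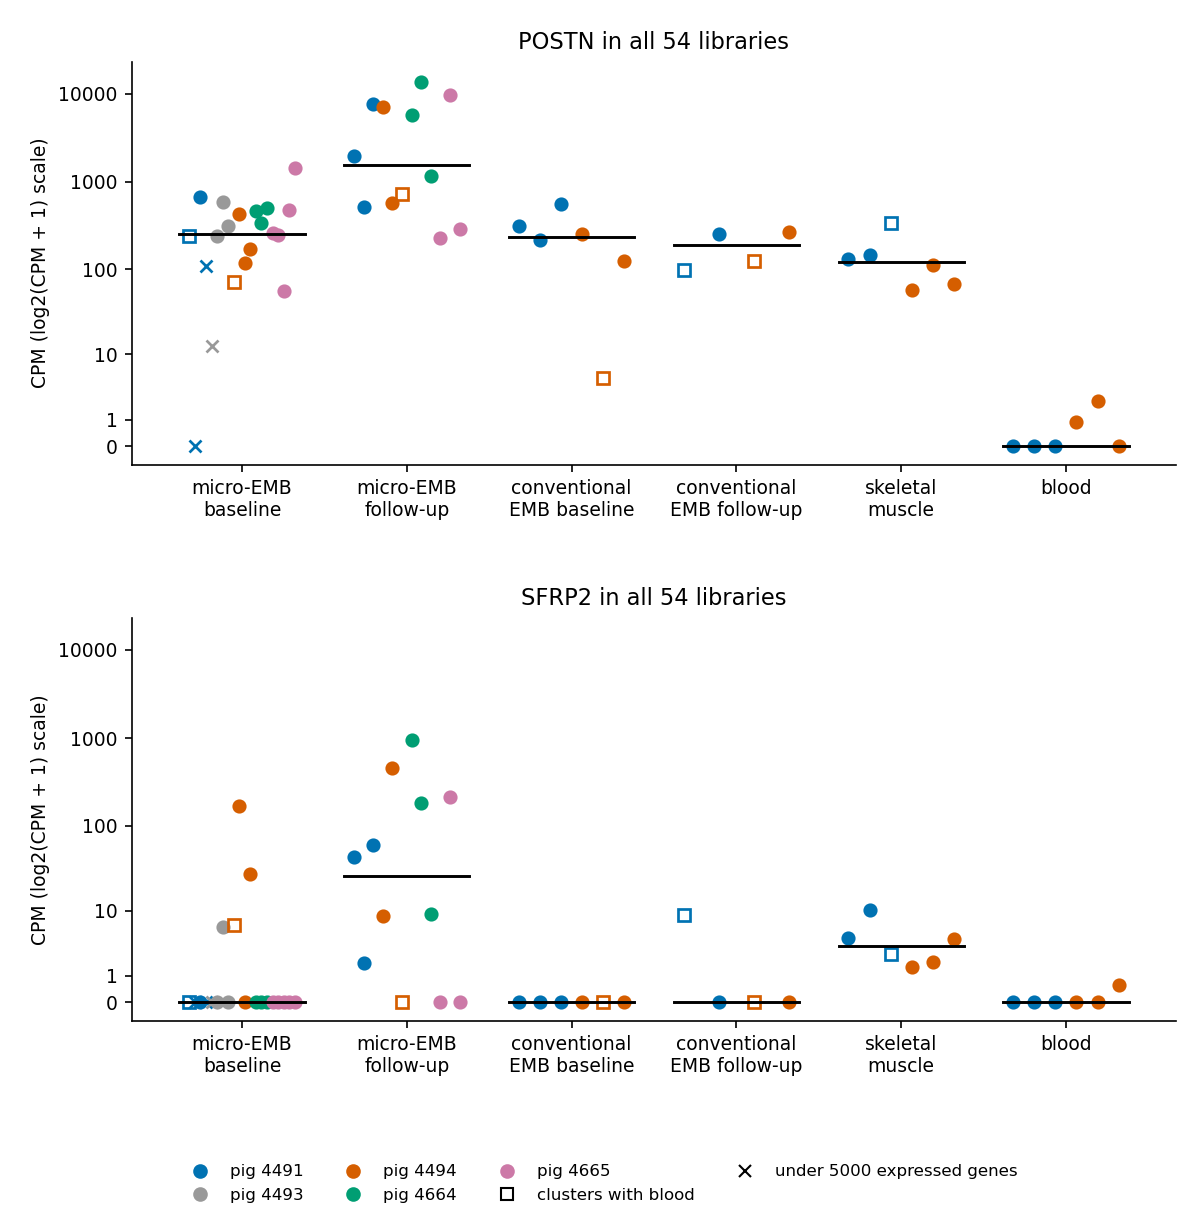
POSTN (top) and SFRP2 (bottom) in each of the 54 libraries, as CPM on a log2(CPM + 1) axis, by sample group; colours mark pigs, open squares the samples that cluster with blood, crosses those under 5000 expressed genes, and black lines group medians. POSTN reaches 13693 CPM in micro-EMB at follow-up and at most 2.26 CPM in blood, and SFRP2 lies at 0 in all 6 conventional EMB baseline samples and above 0 in all 6 skeletal muscle samples.

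In micro-EMB at baseline, POSTN ranged from 0 to 1435 CPM over 20 samples, and from 57.0 to 1435 CPM (median 317 CPM) over the 17 with at least 5000 expressed genes. The 2 highest were replicate 18 of pig 4665 at 1435 CPM and replicate 7 of pig 4491 at 662 CPM. All 3 baseline samples under the limit of 5000 genes had POSTN at or under 111 CPM. At follow-up, the 12 samples ranged from 231 to 13693 CPM (median 1568 CPM), with a mean of 4106 ± 4530 CPM (SD, n = 12). Of these 12, 6 lay above the highest baseline sample and the other 6 lay inside the baseline range, so the groups overlapped. The highest 5 lay between 5766 and 13693 CPM and the lowest 2 at 231 and 289 CPM.

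The high POSTN samples came from every pig with a follow-up. In pig 4491 the 3 follow-up samples had 1959.6, 511 and 7708 CPM, the lowest of them below the pig's highest baseline sample at 662 CPM. In pig 4494 they had 7109.5, 571 and 726 CPM, all above its highest baseline sample at 429 CPM. In pig 4664 they had 5766, 13693 and 1176 CPM, also all above its baseline samples, which had between 338 and 503 CPM. In pig 4665 the follow-up samples had 231, 9529 and 289 CPM, 2 of them near its baseline median of 260 CPM. The difference of the mean log2(CPM + 1) between follow-up and baseline, over samples with at least 5000 expressed genes, was 2.30 in pig 4491, 3.17 in pig 4494, 3.40 in pig 4664 and 1.51 in pig 4665. In pig 4491 the baseline then held 2 samples, of which replicate 1 clusters with blood and had near-absent cardiomyocyte genes. In the single most extreme library, micro-EMB follow-up 6, 28458 of 2681226 counted reads belonged to POSTN, a share of 1.06% (95% Wilson interval 1.05% to 1.07%, counting error only). That library was also one of the 5 with near-absent cardiomyocyte genes and held the highest sum over 5 fibroblast genes, 94312 CPM. Without it, POSTN at follow-up ranged from 231 to 9529 CPM with a median of 1176 CPM over 11 samples.

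SFRP2 was not read in most biopsies of the naïve heart. At baseline 16 of 20 micro-EMB samples had no SFRP2 read. The 4 with reads were replicates 8, 12, 16 and 20, with 3, 789, 15 and 34 reads. Replicate 12, of pig 4494, stood at 169 CPM, well above replicate 20 of the same pig at 27.7 CPM. At follow-up 9 of 12 samples had SFRP2 reads, between 3 and 2665 of them, and 3 samples had none (replicates 9, 10 and 12, with floors of 1.57, 1.41 and 2.36 CPM for a count of 3). The highest were replicate 3 of pig 4664 at 943 CPM, replicate 8 of pig 4494 at 458 CPM, replicate 11 of pig 4665 at 212 CPM and replicate 6 of pig 4664 at 181 CPM. These 4 were above every baseline sample, and the other 8 were not.

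By pig, SFRP2 was read in 3 of 3 follow-up samples of pigs 4491 and 4664, against none of 4 and none of 3 of their baseline samples. In pig 4665 it was read in 1 of 3 follow-up samples and 0 of 5 baseline samples. Pig 4494 differed, with SFRP2 reads in 3 of 4 baseline samples and 2 of 3 follow-up samples, and its mean log2(CPM + 1) differed by 0.24 between the timepoints. The same difference was 4.31 in pig 4491, 6.91 in pig 4664 and 2.58 in pig 4665. Of the 4 baseline samples of pig 4491, 2 had at least 5000 expressed genes. Replicate 1, among these 2, clusters with blood and had near-absent cardiomyocyte genes.

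**Figure D2:**
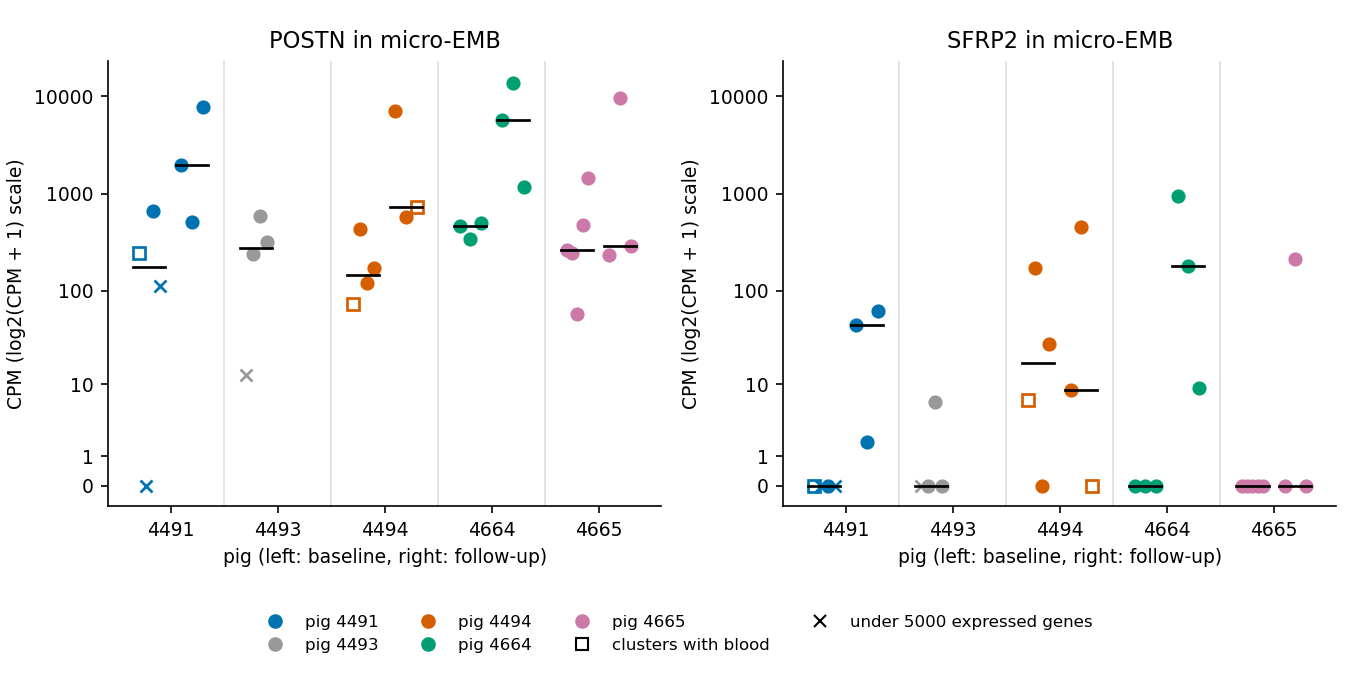
POSTN (left) and SFRP2 (right) in micro-EMB by pig, as CPM on a log2(CPM + 1) axis, with baseline on the left and follow-up on the right of each pig; black lines are medians, open squares cluster with blood and crosses have under 5000 expressed genes. The highest follow-up sample of each of the 4 pigs lies between 7109.5 and 13693 CPM of POSTN, and SFRP2 reads are seen at baseline in pigs 4493 and 4494.

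Conventional EMB gave the same contrast of timepoints in samples that the choice did not use. POSTN had 316, 217, 253, 560, 4.85 and 126 CPM in the 6 baseline samples. At follow-up it had 126, 264, 98.4 and 255 CPM. The follow-up values lay inside the baseline range. The log2 fold change was -0.06 (SE 0.80, 95% interval -1.78 to 1.67), with an edgeR quasi-likelihood adjusted p = 0.999 (Benjamini-Hochberg). In this comparison edgeR called 0 of 9622 genes (0%), with 302 at an unadjusted p under 0.05, while DESeq2 called 193. An exact permutation test within pigs gave a difference of 0.30 on the log2(CPM + 1) scale (two-sided, p = 0.90, 100 relabellings, smallest possible 0.01).

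The low baseline value belonged to replicate 5, with 8 POSTN reads of 2241336, which clusters with blood and had near-absent cardiomyocyte genes. Without the samples that cluster with blood, the log2 fold change was 0.043 (edgeR adjusted p = 0.979), and without the 2 biopsies of near-absent cardiomyocyte genes the exact permutation difference was -0.36 (two-sided, p = 0.50). Of the 4 follow-up libraries, 3 had under 1000000 counted reads. In the same 2 pigs, micro-EMB at follow-up ranged from 511 to 7708 CPM, and all 6 of those samples lay above the highest of the 4 conventional EMB follow-up samples at 264 CPM. The micro-EMB values are those that picked the gene, and the difference between the devices was not tested. The share of all genes without overlap between these 2 groups was not computed.

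SFRP2 was not read in any of the 6 conventional EMB baseline samples, that is in 0 of 10126141 counted reads, which allows up to 0.296 CPM of the total count over the group. At follow-up it had 0, 0, 4 and 0 reads. The difference was 0.82 on the log2(CPM + 1) scale and did not pass an exact permutation test within pigs (two-sided, p = 0.40). All 4 reads came from replicate 3, at 8.74 CPM, one of the libraries with near-absent cardiomyocyte genes. Without that library and baseline 5, no conventional EMB sample had an SFRP2 read. At the depth of the follow-up group, 2898417 reads, the floor over the group is 1.04 CPM of the total count, so levels like those of skeletal muscle could have been seen in the summed reads.

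Skeletal muscle held both genes. POSTN had 58.4, 131, 114, 147, 67.9 and 342 CPM in the 6 samples, overlapping with conventional EMB at baseline. The log2 fold change of conventional EMB over skeletal muscle was 0.65 (SE 0.68, 95% interval -0.78 to 2.08), which did not pass (edgeR adjusted p = 0.649), in a comparison where 984 of 10800 genes were called (9.11%). The call depended on the libraries that cluster with blood. Without them, conventional EMB baseline 5 and skeletal muscle 6 among them, the log2 fold change was 1.32 with an adjusted p = 0.0291 by edgeR. Without conventional EMB baseline 5 alone, the exact permutation difference was 1.12 on the log2(CPM + 1) scale (two-sided, p = 0.025).

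SFRP2 was read in each of the 6 skeletal muscle samples, with 1, 5, 3, 23, 7 and 1 reads, or 1.496 to 10.3 CPM. Summed over the group, 40 of 12463867 reads gave 3.21 CPM of the total count, at least 10.8-fold higher than the floor of 3 reads over the conventional EMB baseline group. Replicate 4 held 23 of those 40 reads, and without it the bound was 6.92-fold. The groups did not overlap, and the mean log2(CPM + 1) was 2.16 in skeletal muscle against 0 in conventional EMB at baseline (exact permutation test within pigs, two-sided, p = 0.005, the smallest that 400 relabellings can give). In this contrast edgeR called 3.98% of 10800 tested genes lower in conventional EMB, and the share of all genes without overlap was not computed. In a fit without the filter on low counts, edgeR gave an adjusted p = 0.0762, so the call depended on the test. In 3 of the 6 samples there were 3 or fewer reads.

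In blood, POSTN had 0, 2, 0, 5, 0 and 0 reads and SFRP2 had 0, 0, 0, 0, 0 and 2 reads. For POSTN, the 6 blood samples lay below all 6 conventional EMB baseline samples and all 6 skeletal muscle samples. Micro-EMB baseline 4, one of the samples of few genes, had no POSTN read either. The log2 fold change was 8.51 (SE 1.03) in conventional EMB at baseline over blood, with an edgeR adjusted p = 2.71e-06. For skeletal muscle over blood it was 7.87 (SE 1.01), with an edgeR adjusted p = 4.18e-06. Genes called higher made up 24.2% of those tested in the first comparison and 26.4% in the second, so such a call was common. For SFRP2, conventional EMB at baseline and blood could not be told apart at this depth (exact permutation test, two-sided, p = 1.0). Skeletal muscle exceeded blood by 2.05 on the log2(CPM + 1) scale (exact permutation test, two-sided, p = 0.005), and by edgeR without the filter the adjusted p was 0.0760.

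Fibronectin was read in all groups. Its level was between 46.9 and 5009 CPM (median 1177 CPM) in the 17 baseline micro-EMB samples with at least 5000 expressed genes. At follow-up it was between 430.1 and 34231 CPM (median 6786 CPM). In conventional EMB it ranged from 350 to 1193 CPM at baseline and from 236 to 893 CPM at follow-up, and in blood it stayed between 5.64 and 25.3 CPM.

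Correlation with FN1 was positive for both genes within each group in which it could be computed, but none passed the adjustment. In micro-EMB these relations use the same libraries and values that picked the genes. Values are Pearson's r and Spearman's rho on log2(CPM + 1), with exact two-sided permutation tests within pig and timepoint, and Benjamini-Hochberg adjustment over the 7 relations computed. For POSTN in micro-EMB at baseline, r was 0.46 and rho 0.49 over 17 samples (exact permutation p = 0.0772 and p = 0.0840, adjusted p = 0.117 and p = 0.156). In micro-EMB at follow-up, r was 0.69 and rho 0.71 over 12 samples (exact permutation p = 0.0594 and p = 0.0332, adjusted p = 0.117 and p = 0.156). In conventional EMB, r was 0.49 and rho 0.54 over 10 samples (exact permutation p = 0.0208 and p = 0.0903, adjusted p = 0.117 and p = 0.156). With the 2 samples farthest from the FN1 median left out, r was 0.44, 0.44 and 0.75 in these 3 groups. The follow-up value therefore rested in part on replicates 10 and 12 of pig 4665, which were low in both genes. With 1 library left out, r at follow-up ranged from 0.61 (without replicate 10) to 0.84 (without replicate 4). The raw exact permutation p ranged from 0.00463 to 0.178 in these runs. Without the biopsies of near-absent cardiomyocyte genes, r was 0.58 at baseline (raw exact permutation p = 0.0132), 0.67 at follow-up (p = 0.0856, exact permutation) and 0.33 in conventional EMB (raw exact permutation p = 0.25).

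For SFRP2 and FN1, r was 0.60 and rho 0.54 in micro-EMB at follow-up (exact permutation p = 0.0833 and p = 0.0988, adjusted p = 0.117 and p = 0.156), and r fell to 0.30 without the 2 samples farthest from the FN1 median. At baseline, r was 0.35 and rho 0.24 (exact permutation p = 0.194 and p = 0.347, adjusted p = 0.227 and p = 0.405), with reads in 4 of 17 samples. Without replicate 12 that r was 0.09, so it rested on 1 sample. In conventional EMB it was not computed, since 1 sample held SFRP2 reads. Between POSTN and SFRP2, r was 0.67 and rho 0.63 at follow-up (exact permutation p = 0.0772 and p = 0.111, adjusted p = 0.117 and p = 0.156), and r was 0.90 without replicates 3 and 8, the samples farthest from the SFRP2 median. At baseline, r was -0.07 and rho -0.13 (exact permutation p = 0.972 and p = 0.958, adjusted p = 0.972 and p = 0.958).

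Over all 39 heart biopsies with at least 5000 expressed genes, r was 0.74 for POSTN with FN1, 0.65 for SFRP2 with FN1 and 0.59 for POSTN with SFRP2. These pooled values are a description with no p, since the biopsies share pigs and libraries and include the timepoint contrast that picked the genes. Without the samples that cluster with blood they were 0.79, 0.76 and 0.68 over 33 biopsies, and without the 4 biopsies of near-absent cardiomyocyte genes they were 0.77, 0.66 and 0.59 over 35. Among the 5 highest of the 42 heart biopsies, POSTN and FN1 shared 4, and POSTN and SFRP2 shared 3.

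The 3 genes also parted ways in single libraries. Micro-EMB follow-up 4 had POSTN at 7109.5 CPM with FN1 at 1608 CPM and SFRP2 at 8.52 CPM. In micro-EMB follow-up 8, SFRP2 was second highest of all biopsies at 458 CPM, while POSTN stood at 571 CPM, inside the baseline range. Micro-EMB follow-up 9 had FN1 at 7998 CPM and no SFRP2 read, and it clusters with blood. Micro-EMB baseline 12 had SFRP2 at 169 CPM and the highest baseline FN1, 5009 CPM, with POSTN at 429 CPM, so a sample of the naïve heart also held SFRP2 and FN1 together. That library held the highest sums of all baseline micro-EMB samples for 5 fibroblast genes, 47659 CPM, and for 4 macrophage genes, 2307 CPM.

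**Figure D3:**
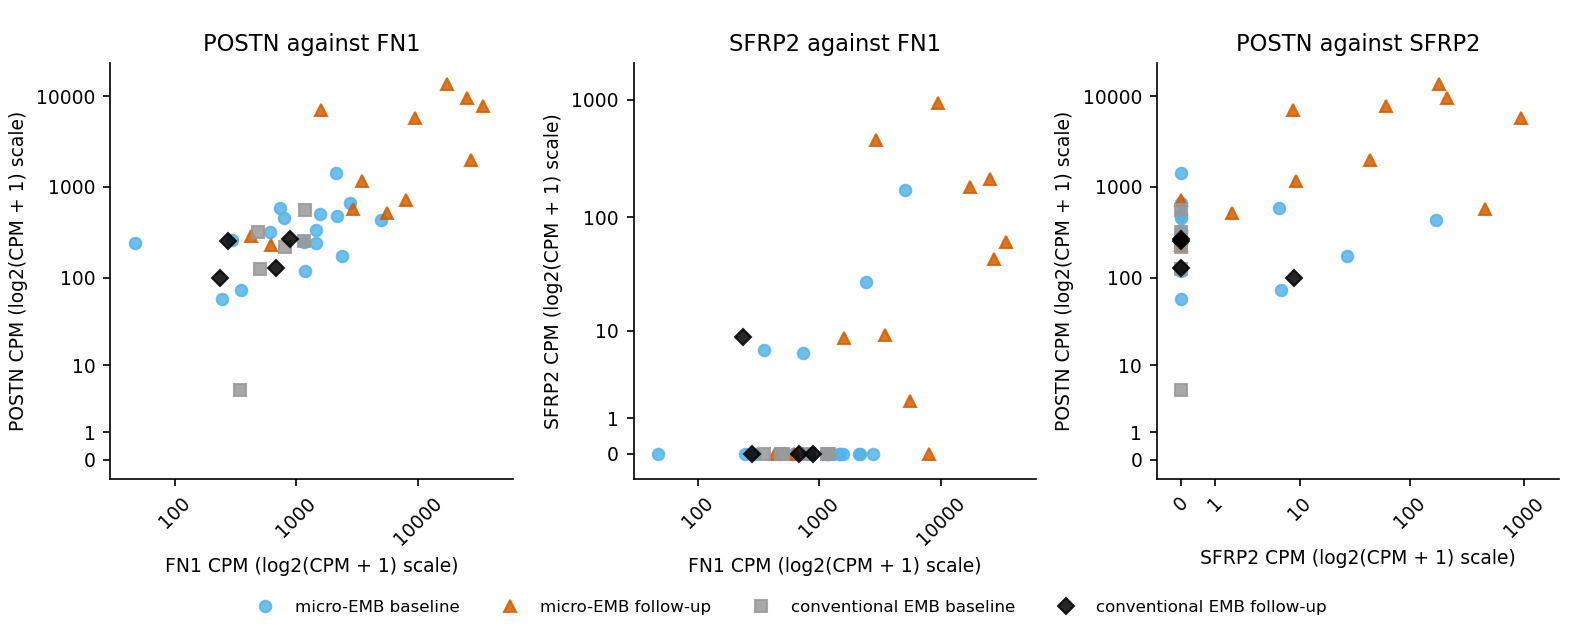
POSTN and SFRP2 against FN1, and POSTN against SFRP2, in the 39 heart biopsies with at least 5000 expressed genes, all as CPM on log2(CPM + 1) axes; symbols mark the 4 groups of heart biopsies. The highest values of each gene belong to micro-EMB follow-up samples (triangles), and other triangles lie among the baseline samples. Conventional EMB samples stay at or below 560 CPM of POSTN, and many biopsies lie at 0 for SFRP2.

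Sums of cell type markers were set beside both genes. Each r below is pooled over the groups of biopsies, so it includes the timepoint contrast that picked the genes. For these sums no r within centred groups was computed. Over the 39 biopsies, the log2 sum of 5 fibroblast genes (of 9 listed) had r = 0.65 with POSTN and 0.52 with SFRP2, and that of 4 macrophage genes (of 8 listed) had r = 0.37 and 0.60. For the 3 endothelial genes (of 7 listed) r was -0.28 and -0.58. For the 6 cardiomyocyte genes (of 11 listed) r was 0.06 and -0.20, and without the 4 biopsies in which those genes were near absent it was -0.43 and -0.39. The other sums named here moved by less, to 0.65 and 0.58 for fibroblast, 0.35 and 0.60 for macrophage and -0.17 and -0.51 for endothelial genes. The sum of 6 activated fibroblast and myofibroblast genes other than POSTN had r = 0.56 with POSTN and 0.61 with SFRP2 (0.66 and 0.60 without those 4 biopsies). The fibroblast sum ranged from 587 to 47659 CPM (median 12525 CPM) in micro-EMB at baseline and from 2670 to 94312 CPM (median 30139 CPM) at follow-up. Other sums also differed between the timepoints in micro-EMB. The cardiomyocyte sum ranged from 194 to 181905 CPM (median 100601 CPM) at baseline and from 664 to 121392 CPM (median 48312 CPM) at follow-up. The median sum was 478 CPM at baseline and 740 CPM at follow-up for the 6 activated fibroblast genes, 394 and 682 CPM for 5 smooth muscle genes, of which MYH11 had no reads, and 186 and 296 CPM for macrophage genes. ACTA2 and TAGLN enter both the activated fibroblast and the smooth muscle sum. In conventional EMB the fibroblast sum ranged from 3710 to 11193 CPM (median 6930 CPM) at baseline and from 247 to 8240 CPM (median 1964 CPM) at follow-up. All 5 fibroblast genes had reads in each group of biopsies. Fewer cells of a type and less RNA per cell cannot be told apart in these bulk samples, and the part of cell makeup in the levels of POSTN and SFRP2 was not tested. Against log2 total reads, r was 0.28 for POSTN and 0.26 for SFRP2.

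Ranked by Pearson's r over the 39 biopsies among 14631 other genes, the genes most like POSTN were FMOD (0.79), a small proteoglycan that binds collagen, ANTXR1 (0.77), a cell surface receptor that binds collagen, ANGPTL2 (0.76), a secreted angiopoietin-like protein, FAM114A1 (0.75) and FN1 (0.74). PTPN13, CNN3, SFRP1, ASAP2 and MMP14 followed at 0.73 to 0.74. MMP14 is a membrane-bound collagenase, and SFRP1 is a paralog of SFRP2. These 10 genes were picked on the same biopsies, and with each group centred on its mean their r was between 0.56 and 0.71. Without the 4 biopsies of near-absent cardiomyocyte genes it was between 0.59 and 0.77, and 5 of the 10 were still among the 10 highest. SFRP2 ranked number 69 for POSTN.

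For SFRP2 the most alike genes with a symbol were RCN3 (0.75), a calcium-binding protein of the endoplasmic reticulum, OLFML2B (0.74), a secreted olfactomedin-like protein, ADAM12 (0.73), a membrane metalloprotease, COL12A1 (0.72), a collagen that associates with fibrils, and PTN (0.71), a secreted heparin-binding growth factor. SLC7A10 and FNDC1 followed at 0.71 each. Of the 10, 3 had no symbol in the name table, among them the first, ENSSSCG00000003635 (0.75), with a mean of 1.71 CPM in the biopsies. FN1 ranked number 41 and POSTN number 105 for SFRP2. SFRP2 had reads in 14 of the 39 biopsies, and ties at 0 enter each r. Without those 4 biopsies r of the 10 genes was between 0.68 and 0.80, and 4 of them were still among the 10 highest.

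Collagens, which form the fibrils of the matrix, were compared with both genes by the same r. Of 13 fibrillar and associated collagens, 9 had r over 0.5 with POSTN (median 0.61) and 10 with SFRP2 (median 0.57). Over all genes the median r was 0.0004 with POSTN and 0.06 with SFRP2, and 1.42% and 2.28% exceeded 0.5. These r include the timepoint contrast that picked the genes. With each group centred on its mean, 6 of the 13 exceeded 0.5 with POSTN (median 0.50) and 4 with SFRP2 (median 0.46), against 0.595% and 1.11% of all genes. Without the 4 biopsies of near-absent cardiomyocyte genes, 10 and 11 of the 13 exceeded 0.5, against 1.46% and 3.24% of all genes. The shares of all genes given here also hold for the lists that follow. COL12A1 had 0.71 with POSTN, COL8A1 0.69, COL5A2 0.69, COL1A2 0.66 and COL3A1 0.62. COL15A1, a basement membrane collagen, had 0.27 with POSTN and 0.07 with SFRP2. Among matrix glycoproteins and proteoglycans, 14 of 23 exceeded 0.5 with POSTN (median 0.53) and 11 of 24 with SFRP2 (median 0.44). Within centred groups these were 7 of 23 and 4 of 24, and without the 4 biopsies 11 of 23 and 11 of 24. THBS2, a thrombospondin, had 0.61 with POSTN and 0.69 with SFRP2, and TNC, the matricellular protein tenascin, had 0.53 and 0.68. COMP had -0.22 with POSTN. The members of these lists were chosen with earlier results known. COL1A2 and COL3A1 are also fibroblast markers and COL12A1 an activated fibroblast marker, so the list and marker results share genes.

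Among enzymes that process and crosslink collagen, 6 of 12 had r over 0.5 with POSTN (median 0.50) and 5 of 12 with SFRP2 (median 0.47). Within centred groups none exceeded 0.5 with POSTN (median 0.39) and 6 of 12 did with SFRP2 (median 0.42), and without the 4 biopsies 5 of 12 did with each. BMP1, which removes the procollagen C-propeptide, had r of 0.61 with POSTN and 0.67 with SFRP2. ADAMTS2, which removes the N-propeptide, had 0.53 and 0.70, and the crosslinking oxidase LOX had 0.55 and 0.61.

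In the TGF-beta pathway, a known inducer of POSTN in fibroblasts, 2 of 14 genes had r over 0.5 with POSTN (median 0.29) and 3 of 14 with SFRP2 (median 0.34). Within centred groups the counts were 0 and 1 of 14, and without the 4 biopsies 3 and 3. The ligand TGFB3 had 0.57 with each, while TGFB1 had -0.02 with POSTN and 0.16 with SFRP2. The receptors TGFBR1 and TGFBR2 had 0.05 and 0.22 with POSTN. Among secreted Wnt modulators and receptors, 4 of 12 exceeded 0.5 with POSTN (median 0.23) and 3 of 11 with SFRP2 (median 0.25). Within centred groups these were 2 of 12 and 1 of 11, and without the 4 biopsies 2 of 12 and 3 of 11. SFRP1 had 0.73 with POSTN and 0.60 with SFRP2, and DKK3, a member of the dickkopf family, had 0.53 and 0.52. SFRP5 and WIF1, which also bind Wnt ligands, had 0.06 and -0.10 with POSTN. In the study's list of 58 inflammatory genes, 1 had r over 0.5 with POSTN, which was FN1 itself (list median -0.01), and 3 had r over 0.5 with SFRP2 (list median 0.10), against 1 and 0 within centred groups and 3 and 5 without the 4 biopsies.

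**Figure D4:**
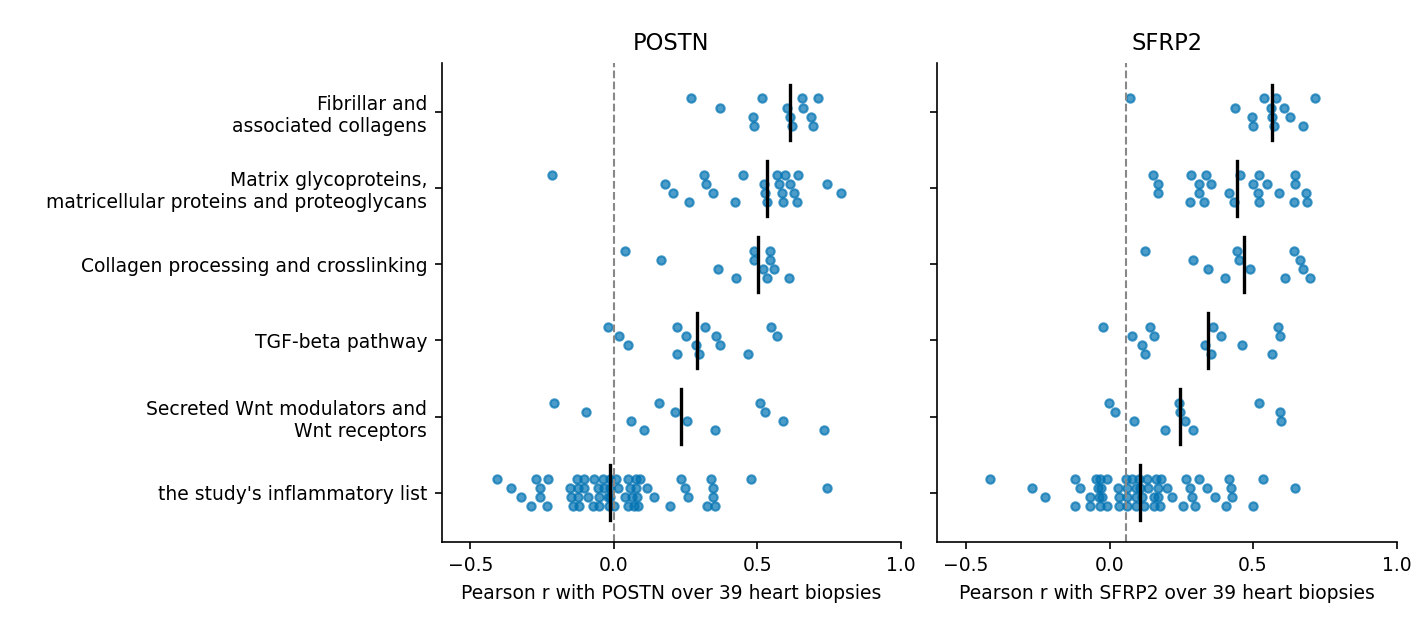
Pearson's r of each listed gene with POSTN (left) and SFRP2 (right) over 39 heart biopsies, by gene list; points are genes, black lines list medians and the dashed line the median of all genes. Collagens sit highest, at a median of 0.61 with POSTN and 0.57 with SFRP2, and the inflammatory list sits near the line of all genes.

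In conventional EMB, where the choice of the 2 genes played no part, edgeR called 0 of all 9622 genes between the timepoints, so the lists held no call. The median log2 fold change at follow-up was -1.08 over 12 collagens tested, with 10 below 0. It was -0.58 over 21 matrix glycoproteins and proteoglycans, with 19 below 0, against -0.15 over all genes. Above 0 were 2 of the 12 collagens and 2 of the 21 matrix genes, against 42.5% of all genes tested. Medians of cell type sums also differed between these timepoints, with overlapping ranges. The median of the fibroblast sum was lower at follow-up, as given above. The cardiomyocyte sum ranged from 92.7 to 154863 CPM (median 108473 CPM) at baseline and from 345 to 127125 CPM (median 45216 CPM) at follow-up. The sum of 4 erythroid genes (of 6 listed) ranged from 29.7 to 964 CPM (median 294 CPM) at baseline and from 31.6 to 5289 CPM (median 1830.04 CPM) at follow-up, and 2 of the 4 follow-up libraries cluster with blood. The part of these in the list values was not tested. Between conventional EMB at baseline and skeletal muscle, 7 of the 21 matrix glycoproteins and proteoglycans were called higher in heart and none lower, where 5.13% of all genes were called higher and 3.98% lower. They were THBS1, THBS2, FBLN1, ELN, SPP1, BGN and VCAN. SFRP1, the paralog of SFRP2, was higher in heart by a log2 fold change of 4.27 (SE 1.00, edgeR adjusted p = 0.00894), and DKK3 by 5.16 (SE 1.04, edgeR adjusted p = 0.00537). SFRP2 itself was read in skeletal muscle and not in conventional EMB at baseline. None of the 12 collagens tested was called in either direction. Conventional EMB baseline 5, of near-absent cardiomyocyte genes, and skeletal muscle 6, which clusters with blood, were part of the comparison with skeletal muscle. With 1 library left out, the number of genes called there ranged from 680 to 1442, and with counts summed per pig it was 0. Whether single listed genes kept their call in those runs was not examined.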

How the data were processed

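The authors trimmed reads (Trim Galore), mapped them to the pig genome Sscrofa10.2 (STAR) and counted them per gene (featureCounts) after low-input RNA isolation and SMARTer Stranded Total RNA libraries. Per the labels these are the tools; versions are not given in the sources used here. The deposited table holds raw counts per gene for 54 samples, between 64216 and 4649613 per sample. Sample type, pig and timepoint came from the labels. RNA isolation batches are not in the labels used here, so batch was not tested. Symbols came from the reference name table, which matched 11791 of 25114 identifiers. The reference gene table used here is of another build than the counts, so no coordinates are printed.

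The 2 genes, the gene lists and the sample criteria (under 5000 genes at 1 CPM, clustering with blood on 841 study genes) were chosen with earlier results of these data known. Levels are TMM-scaled CPM (edgeR 4.0.16, R 4.3.3). Tests were edgeR quasi-likelihood with pig as covariate, TMM, filterByExpr and Benjamini-Hochberg adjustment over all genes, called at a log2 fold change past 1 and adjusted p under 0.05. Conventional EMB timepoints were fitted on their 10 samples, tissues in 1 fit over 18 baseline samples. The filter removed SFRP2, so an exact permutation within pigs on log2(CPM + 1) was used for it instead. That change was made after the counts had been seen, and the edgeR fit without the filter is given beside it. Correlations were permuted within pig and timepoint over every arrangement (up to 300000) with 7 of 9 planned relations computable. Leave-one-out runs that exceeded this number used 20000 random arrangements. Floors are 3 counts. The Wilson interval of a read share covers counting error only. Intervals of log2 fold changes come from the SE of the edgeR fit, which includes the spread between biopsies. Genes most alike are the 10 with the highest Pearson's r over 39 biopsies. In counts simulated for the conventional EMB timepoints (9670 genes), edgeR recovered 75 of 100 genes changed 4-fold and 100 of 100 changed 8-fold. For conventional EMB against skeletal muscle (10864 genes) it recovered 99 of 100 and 100 of 100. In these simulations the spread was assumed and not taken from the samples. Only genes above a minimum mean count were changed, and neither blood content nor cell makeup varied. The recovered counts are therefore not the power in the real samples. Alternatives were DESeq2 1.42.0, RLE scaling, no filter, no pig term, other pseudocounts, samples or pigs left out, and counts summed per pig. Permutations used numpy 2.4.6 and scipy 1.17.1.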

Additional observations from a re-analysis of the deposited data

Results flagged for a closer look

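By Dixon's criterion on log2(CPM + 1), 3 values lay apart in 11 groups of 4 to 10 samples. Chance flags about 1 in 20 groups, but both SFRP2 values met the criterion by construction, since all others in their group were 0. POSTN was 4.85 CPM (8 reads) in conventional EMB baseline 5, against 126 to 560 CPM in the other 5 samples; that library clusters with blood and its cardiomyocyte sum was 92.7 CPM. SFRP2 was 8.74 CPM (4 reads) in conventional EMB follow-up 3, against 0 in the other 3, and that library clusters with blood too. SFRP2 was 0.557 CPM (2 reads) in blood replicate 6, against 0 in the other 5, which is below its floor of 0.835 CPM.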

How the results depend on the processing

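For the conventional EMB timepoints, the log2 fold change of POSTN was near 0 and changed sign with the processing, at 0.069 with DESeq2, 0.075 with RLE scaling, 0.043 without the samples that cluster with blood, 0.089 with counts summed per pig, 1.02 without samples under 1000000 reads and 0.30 by exact permutation, and from -0.54 to 0.35 with 1 library left out. No adjusted p was below 0.79, and the cause was not tested. Genes called there numbered 193 with DESeq2 and 106 without the filter. Between conventional EMB at baseline and skeletal muscle, POSTN passed by permutation without conventional EMB baseline 5 (1.12), and at 1.32 by edgeR without the samples that cluster with blood, when 1571 genes were called, against 0 with counts summed per pig, which leave few samples. Summed counts gave 1916 genes for conventional EMB and 2677 for skeletal muscle over blood. The call of SFRP2 was lost by edgeR against skeletal muscle (-5.91 without the filter, -7.83 summed) and for skeletal muscle over blood (4.60 and 5.23), where fitted values against 0 reads depend on the prior count. DESeq2 left SFRP2 without an adjusted p in 2 comparisons. All calls against blood of POSTN kept their side in every alternative run.

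The raw permutation p of POSTN with FN1 passed 0.05 in micro-EMB at baseline with values centred by pig (r = 0.69) and without the biopsy of near-absent cardiomyocyte genes (r = 0.58), and at follow-up without the sample that clusters with blood (r = 0.73). In conventional EMB it was lost with unscaled CPM (r = 0.57), with centred values (r = 0.74), without the samples that cluster with blood (r = 0.39), without the 2 of near-absent cardiomyocyte genes (r = 0.33) and without those under 1000000 reads (r = 0.90). Left-out ranges of r were 0.37 to 0.58, 0.61 to 0.84 and 0.39 to 0.63 in the 3 groups. SFRP2 with FN1 at follow-up passed without the sample that clusters with blood (r = 0.68; 0.50 to 0.71 with 1 library left out). POSTN with SFRP2 changed sign at baseline, with r = 0.41 centred, 0.11 over all samples, 0.025 without samples that cluster with blood and 0.031 without those of low depth (-0.24 to 0.036 with 1 library left out), and passed at follow-up without replicates 3 and 8 (r = 0.90; 0.60 to 0.86). The micro-EMB difference kept its sign in every alternative, from 2.48 to 3.94 for POSTN and from 2.58 to 4.42 for SFRP2 on the log2 scale. No replicate block was fitted, since replicate numbers follow sample order and pair nothing; pig was the block. Depth limits SFRP2 most, whose values in conventional EMB and skeletal muscle rest on 0 to 23 reads a library.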
